A study of Mus musculus with 2 samples.

Results

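Reelin signalling was described here through 8 genes, chosen by symbol: the ligand gene Reln, the receptor genes Vldlr and Lrp8, the adaptor gene Dab1, the kinase gene Fyn, and Crk, Crkl and Rapgef1, which act after Dab1. Each symbol matched 1 line, so these are 8 of the 33938 lines of the gene table. The data are single-nucleus RNA-seq of neocortex dissected from mouse embryos, with 1 library whose genotype label is MEN1-F/F and 1 labelled MEN1-NCKO. Men1 encodes menin, a scaffold protein of histone methyltransferase complexes. The labels do not spell out F/F or NCKO, and 4 things that limit the model, namely embryonic age, number of embryos pooled, driver of the deletion and targeted stretch of Men1, are all not given in the sources used here. Since each label has a single library, no replicate spread and no test exist. Every difference below is between these libraries, and every 95% interval covers counting error only.

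Reelin is a large secreted glycoprotein, known from the marginal zone of the developing cortex, where Cajal-Retzius cells release it. It binds the lipoprotein receptors Vldlr and Apoer2 (the product of Lrp8) on migrating neurons, which leads Src-family kinases such as Fyn to phosphorylate the adaptor Dab1 on tyrosines. Phosphorylated Dab1 recruits Crk and Crkl, which bring in the exchange factor encoded by Rapgef1 to switch on the small GTPase Rap1. Mice that lack reelin or Dab1 have inverted cortical layers.

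After filtering, 6130 F/F-labelled nuclei held 26814630 unique molecular identifiers (UMIs) and 9807 NCKO-labelled nuclei held 41446857, with median depths of 3671 and 3579 UMIs per nucleus. The libraries shared 15 barcodes. Clustering left the 8 genes out, and 29 of 41 clusters were named as 1 of 17 cell classes from marker genes. A class is called "like" a cell type because the name rests on those markers. All markers of its own list were detected in the Cajal-Retzius-like class, while in the intermediate progenitor-like class Neurog1 was at 0 in both libraries. Men1 itself was not lower in the library labelled NCKO, with 282 UMIs against 564 and a level of 10.52 against 13.6 CPM (the UMIs of a gene per 1000000 UMIs of the same library or class). The ratio of NCKO over F/F was 1.29 (1.12 to 1.498). Of 9 classes, the interval lay below 1 in radial glia-like nuclei alone (24.6 against 8.40 CPM), above 1 in 3, and held 1 in 5. Whether the counted 3' end of Men1 was targeted is unknown here, so this does not settle the labels, and each direction below is between libraries as labelled.

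Over all kept nuclei the genes of the pathway differed little between the libraries. None of the 8 was past 1.5-fold, taken as the ratio of CPM + 5, where 1.19% of 17161 genes with at least 50 UMIs were (0.425% higher and 0.763% lower in the NCKO-labelled library). The median log2 ratio of the 8 was 0.03 and that of all genes 0.02. Within the 9 classes that had at least 100 nuclei in each library, 69 of the 72 pairs of gene and class had enough UMIs. Of these, 4 were past 1.5-fold (5.80%), all higher in the NCKO-labelled library: Reln in intermediate progenitor-like and radial glia-like nuclei, and Dab1 in interneurons like those of the medial ganglionic eminence (MGE) and in striatal-like neurons. Over all genes the share was 7.07% of 78340 pairs, with 3.83% higher and 3.24% lower, so the members were past the fold about as often as genes in general. By class, with the shares higher and lower in the NCKO-labelled library in brackets, the share of all genes past the fold was 4.12% (2.24% and 1.88%) in layer 6-like and 4.57% (1.72% and 2.85%) in upper-layer-like neurons. It was 4.68% (2.54% and 2.14%) in striatal-like, where 1 of 8 members was past it, and 5.67% (3.01% and 2.66%) in layer 5-like neurons. In MGE-like interneurons, again with 1 of 8 members past it, it was 5.9% (3.19% and 2.71%). It was larger in classes with fewer UMIs, at 10.3% (5.88% and 4.42%) in intermediate progenitor-like and 14.1% (8.55% and 5.5%) in radial glia-like nuclei, each with 1 of 7 members past it. Interneurons like those of the caudal ganglionic eminence (CGE) had 10.8% (6.59% and 4.19%) and migrating neuron-like nuclei 11.3% (5.77% and 5.5%), and there, as in layer 5-like, layer 6-like and upper-layer-like neurons, no member was past it.

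The ligand gene Reln was concentrated in Cajal-Retzius-like nuclei. Reln (ENSMUSG00000042453) spans chr5:21884454-22344702 on the minus strand (GRCm38, GENCODE vM21). Its level in Cajal-Retzius-like nuclei was 15858 CPM (interval 15406 to 16320) for F/F and 13855 CPM (interval 13554 to 14161) for NCKO. This class was named from Trp73, Lhx5, Ebf3, Ndnf and other markers, without Reln, and Reln was its leading gene. Gm10475, an antisense gene inside Reln, was also a leading gene and was not left out of the clustering. Its part in defining the class was not tested. It held 42 F/F-labelled and 110 NCKO-labelled nuclei, of which 41 and 110 had at least 1 Reln UMI. Single F/F-labelled nuclei held a median of 111.5 Reln UMIs, with quartiles of 86.75 and 136 and a highest value of 226. The NCKO-labelled nuclei held a median of 68, with quartiles of 42 and 91 and a highest value of 231, so the middle ranges overlapped little. Their depth also differed, at medians of 6303.5 and 4698 UMIs. Scaled to depth, the medians were 17456 and 14540 CPM, and their quartile ranges, 13618 to 20041 and 10369 to 18296, overlapped.

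Cajal-Retzius-like nuclei were scarce, 0.685% (0.494% to 0.925%) of the F/F-labelled library and 1.12% (0.923% to 1.35%) of the other. They nevertheless held 57.1% (56.0% to 58.2%) and 55.7% (54.8% to 56.5%) of all Reln UMIs. These neurons are known as the earliest and main reelin source of the cortex, and here more than 1 in 2 Reln UMIs came from about 1 nucleus in 100. The GABAergic classes (MGE-like, CGE-like and striatal-like) held most of the rest, 32.7% and 29.5% in the F/F-labelled and the NCKO-labelled library. Of these, striatal-like neurons held 14.6% and 15.5%, MGE-like interneurons 13.1% and 10.3%, and CGE-like interneurons 5.01% and 3.75%. Upper-layer-like neurons were 25.1% and 18.8% of nuclei and held 1.14% and 1.005% of Reln UMIs.

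**Figure D1:**
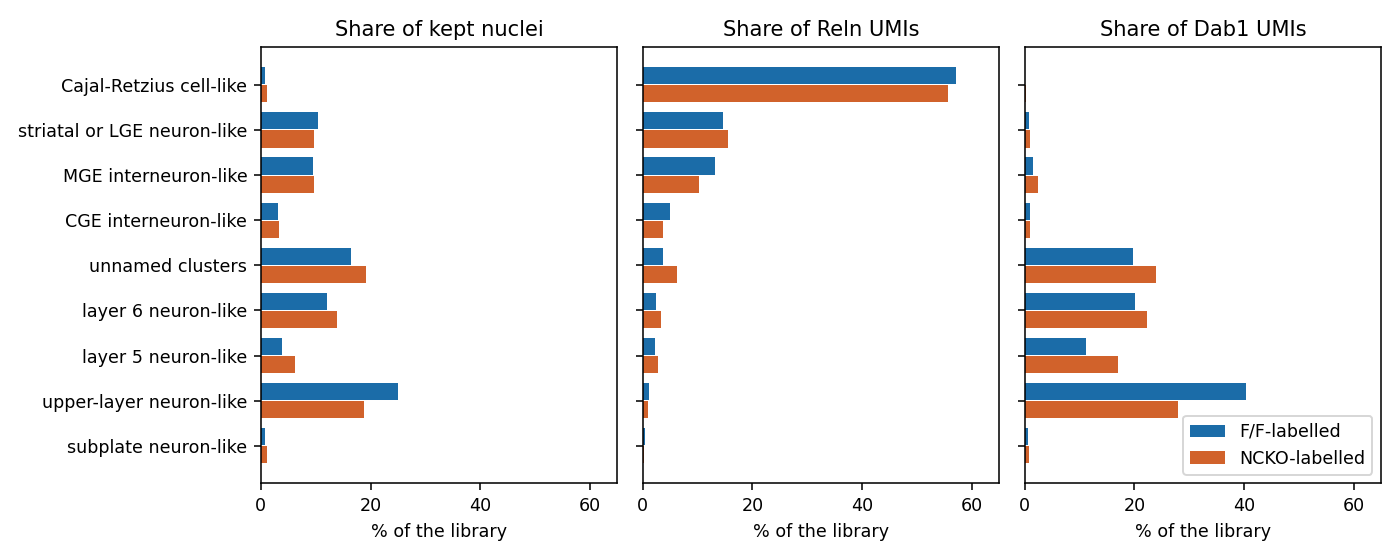
Share of kept nuclei (left), of Reln UMIs (middle) and of Dab1 UMIs (right) in each class as a percentage of the library, for the 9 groups with most Reln in the F/F-labelled library. Cajal-Retzius-like nuclei were 0.685% and 1.12% of nuclei but held 57.1% and 55.7% of Reln UMIs, while upper-layer-like neurons held 40.3% and 27.9% of Dab1 UMIs.

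Below the Cajal-Retzius-like class, Reln was higher in the GABAergic classes than in the excitatory-neuron classes, and most neighbouring classes had overlapping intervals. CGE-like interneurons stood next, at 754 CPM in the F/F-labelled and 576 CPM in the NCKO-labelled library, so the Cajal-Retzius-like level was 21.0 (19.0 to 23.3) and 24.0 (22.0 to 26.3) times higher. MGE-like interneurons had 482 and 421 CPM, and striatal-like neurons 418 and 560 CPM. In the F/F-labelled library the intervals of these classes came in the order CGE-like, MGE-like, striatal-like without overlap. In the NCKO-labelled library the intervals of CGE-like and striatal-like overlapped, and MGE-like was lower. Among excitatory neurons, layer 5-like nuclei had 98.6 and 104 CPM, layer 6-like 48.9 and 72.6 CPM and upper-layer-like 13.7 and 17.5 CPM. The layer 5-like level was 7.20 (5.56 to 9.36) and 5.93 (4.90 to 7.22) times that of upper-layer-like nuclei. Migrating neuron-like nuclei, at 17.6 and 15.8 CPM, could not be told from upper-layer-like nuclei by their intervals. Over the 13 classes that reached 30 nuclei in both libraries, 4 of 12 neighbouring pairs had intervals that did not overlap in the F/F-labelled library and 3 of 12 in the NCKO-labelled one.

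**Figure D2:**
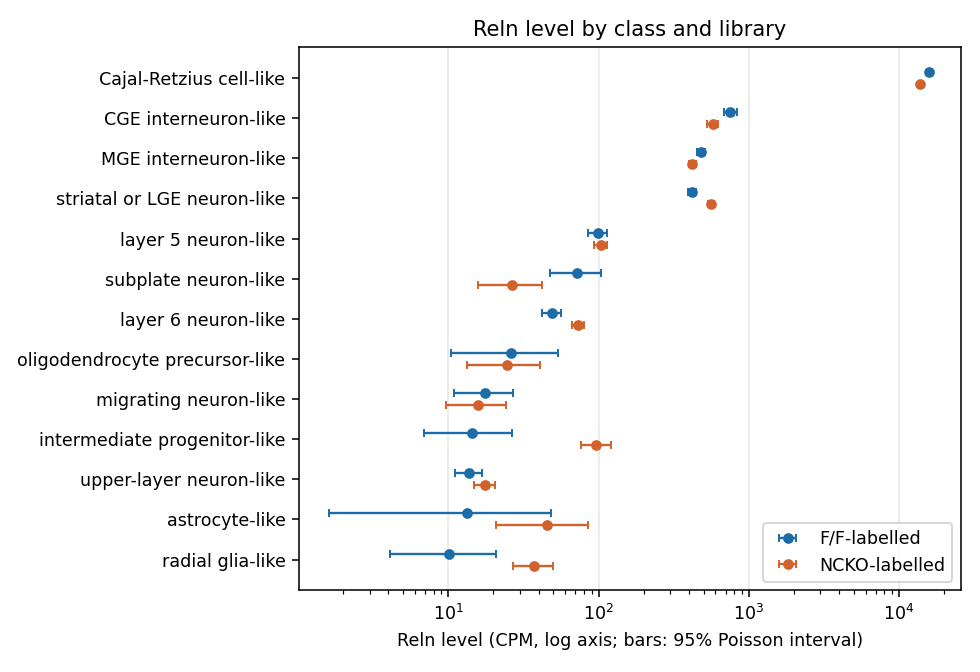
Reln level in CPM (log axis) in the 13 classes that reached 30 nuclei in both libraries, with points for the level and bars for the exact Poisson 95% interval, blue for F/F-labelled and orange for NCKO-labelled. Cajal-Retzius-like nuclei at 15858 and 13855 CPM stand apart from CGE-like, MGE-like and striatal-like neurons at 418 to 754 CPM.

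With each nucleus thinned to 1000 UMIs, the share with any Reln UMI was again highest in Cajal-Retzius-like nuclei, while the GABAergic classes lay close together. It was 97.6% and 97.3% in Cajal-Retzius-like, 23.7% and 22.5% in CGE-like, 21.2% and 22.3% in MGE-like and 20.8% and 26.2% in striatal-like nuclei. Without thinning these shares were 97.6% and all nuclei, 41.4% and 38.6%, 35.8% and 37.0%, and 39.0% and 48.4%. Nuclei left out as shallower numbered at most 3 per class and library in these 4 classes. In upper-layer-like nuclei, where Reln was low, the thinned share was 1.24% and 1.41% (unthinned 5.07% and 6.28%) at median depths of 3843 and 3865.5 UMIs. Layer 6-like nuclei had 3.12% and 4.63%, and migrating neuron-like nuclei 0.966% and 1.19%. How much of these low shares comes from free RNA was not tested.

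Within the GABAergic classes Reln marked some clusters and not others. The striatal-like class held a cluster led by Tac1, Isl1 and Ebf1, genes of direct-pathway projection neurons, with 666 CPM in the F/F-labelled and 775 CPM in the NCKO-labelled library. Its other cluster, led by Drd2, Penk and Adora2a, genes of indirect-pathway neurons, had 33.9 and 69.2 CPM, so the first was 19.6 (14.2 to 27.9) and 11.2 (9.002 to 14.1) times higher. Among MGE-like interneurons, a cluster led by Sst and Elfn1, which mark somatostatin interneurons, had 897 and 610 CPM. A cluster led by Lhx6, Nxph1 and Ackr3, the last a chemokine receptor of migrating interneurons, had 241 and 263 CPM. The ratio between those clusters was 3.73 (3.24 to 4.30) and 2.32 (2.05 to 2.62). The remaining MGE-like cluster, led by Tacr1 and Sst, had 204 and 161 CPM.

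Excitatory clusters also differed in Reln. Within the layer 6-like class, the cluster led by Tle4, Etv1 and Npy had 92.5 and 169 CPM against 21.7 and 28.7 CPM in the cluster led by Hs3st4, Syt6 and Foxp2. The ratio was 4.26 (3.02 to 6.07) and 5.87 (4.66 to 7.45). The remaining layer 6-like cluster, led by Adgra1 and Etl4, had 123 and 78.5 CPM, the highest of the class in the F/F-labelled library but not in the other. Unnamed clusters together had 60.9 and 106 CPM and held 3.62% and 6.21% of Reln UMIs. The cluster led by Fign, Grik1 and Trps1 was among the highest of them, at 335 CPM in 16 F/F-labelled and 495 CPM in 107 NCKO-labelled nuclei. Another, led by Olfm3, Nr4a2 and Oprk1, had 31.3 and 195 CPM, where a single NCKO-labelled nucleus held 61 of 64 Reln UMIs.

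Between the libraries, Reln over all nuclei was 305 CPM in the F/F-labelled and 348 CPM in the NCKO-labelled library, a ratio of 1.14 (1.11 to 1.17). Cajal-Retzius-like nuclei made a larger part of the NCKO-labelled library, and without them the levels were 132 and 157 CPM (ratio 1.18, 1.14 to 1.23). With F/F class shares used as weights in both libraries, the log2 ratio was −0.0006. Fewer cells of a type and less RNA per cell cannot be told apart in a sum over all nuclei. In Cajal-Retzius-like nuclei the ratio was 0.874 (0.843 to 0.906). In those with no UMI of the 5 excitatory-neuron genes Neurod2, Neurod6, Slc17a6, Slc17a7 and Tbr1 (12 and 28 nuclei), it was 0.968 (0.900 to 1.04). Such nuclei were only 28.6% and 25.5% of the class, so that ratio leaves most of the class out. These 5 genes summed to 242 and 319 CPM in the class. Whether they are foreign to it, and their part in the difference, was not tested.

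NCKO-labelled nuclei had less Reln among CGE-like (ratio 0.765, 0.671 to 0.872) and MGE-like interneurons (0.873, 0.806 to 0.945) and more among striatal-like (1.34, 1.25 to 1.44) and layer 6-like neurons (1.49, 1.25 to 1.77). None of these 4 was past 1.5-fold, although layer 6-like neurons passed it under some alternatives, with a log2 ratio of 1.499 for each library clustered alone beside 0.53. In MGE-like interneurons the lower value was that of the somatostatin cluster (ratio 0.680, 0.619 to 0.748), while the Lhx6 cluster had 1.09 (0.929 to 1.29). Thinning each nucleus to 1000 UMIs turned the MGE-like log2 ratio from −0.19 to 0.14. In striatal-like neurons the Tac1 cluster had a ratio of 1.16 (1.08 to 1.25) and the Drd2 cluster 2.04 (1.37 to 3.08). The layer 6-like clusters went different ways, with 1.82 (1.43 to 2.35) in the Tle4 cluster, 1.32 (0.948 to 1.87) in the Hs3st4 cluster and 0.640 (0.451 to 0.921) in the Adgra1 cluster, a cluster of 54 nuclei in the F/F-labelled library and 282 in the other.

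The Reln ratios past 1.5-fold rest on few UMIs. In intermediate progenitor-like nuclei the level was 14.4 CPM from 10 UMIs in the F/F-labelled library and 96.2 CPM from 77 UMIs in the NCKO-labelled one, a ratio of 6.69 (3.45 to 14.5). A subcluster of 18 NCKO-labelled nuclei held 50 of those 77 UMIs, in 3 nuclei, and 1 nucleus alone held 27. The same subcluster had 0 Reln UMIs in 25 F/F-labelled nuclei, which allows a level of up to 34.3 CPM with a floor of 3 UMIs. The larger cluster of the class, led by Top2a, Kif11 and Tpx2, had 16.5 and 36.2 CPM (ratio 2.20, 1.03 to 5.09). This class also carried markers of ganglionic eminence progenitors, 482 and 581 CPM in sum beside 538 and 511 CPM of its own list. The Cajal-Retzius markers Trp73 and Lhx5 were at 0 in it, while Ebf3 had 4 and 10 UMIs and Ndnf 7 and 8. The part of such transcripts in the Reln value of this class was not tested. In radial glia-like nuclei Reln was 10.1 CPM from 7 UMIs and 37.0 CPM from 44 UMIs, a ratio of 3.65 (1.63 to 9.60). There Trp73 went from 1 to 14 UMIs, while Lhx5 had 0 and 1, Ebf3 0 and 1 and Ndnf 11 and 12. The part of such transcripts in the Reln value of radial glia-like nuclei was not tested. In the subplate-like class, with 50 and 101 nuclei, Reln was 71.7 CPM from 27 UMIs and 26.7 CPM from 18 UMIs (ratio 0.372, 0.193 to 0.701).

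The receptor gene Vldlr was below 100 CPM in all 13 classes. Vldlr (ENSMUSG00000024924) lies at chr19:27216484-27254231 on the plus strand, and its product is a lipoprotein receptor that binds reelin. The highest levels were in CGE-like interneurons, at 88.5 CPM in the F/F-labelled and 72.4 CPM in the NCKO-labelled library, and in striatal-like neurons, at 84.1 and 66.3 CPM. Layer 5-like nuclei had 66.3 and 56.3 CPM, upper-layer-like 61.9 and 51.1 CPM and layer 6-like 49.1 and 49.99 CPM. The lowest neuronal level among the 9 classes compared was that of migrating neuron-like nuclei, 28.5 and 24.5 CPM. Upper-layer-like neurons had 2.17 (1.53 to 3.17) and 2.09 (1.45 to 3.11) times that level. None of the 12 neighbouring pairs in the order of 13 classes had separate intervals in either library.

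Over all nuclei Vldlr was lower in the NCKO-labelled library, 54.7 against 46.2 CPM (ratio 0.845, 0.789 to 0.905). The ratio was below 1 in 8 of the 9 classes and 1.02 in layer 6-like neurons. Its interval excluded 1 in striatal-like (0.788, 0.659 to 0.942) and upper-layer-like neurons (0.826, 0.720 to 0.948). With each nucleus thinned to 1000 UMIs, the ratio over all nuclei was 0.941 on the CPM + 5 scale. The radial glia-like ratio of 0.554 (0.290 to 1.06) came from 22 and 21 UMIs, under the minimum of 50.

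Lrp8 was highest in young neurons and in vessels. Lrp8 (ENSMUSG00000028613) lies at chr4:107802261-107876840 on the plus strand and encodes Apoer2. Migrating neuron-like nuclei had 480 CPM in the F/F-labelled and 487 CPM in the NCKO-labelled library, 3.05 (2.75 to 3.38) and 3.12 (2.83 to 3.43) times the upper-layer-like levels of 157 and 156 CPM. Intermediate progenitor-like nuclei, which also carried markers of ganglionic eminence progenitors, had 384 and 340 CPM. Subplate-like (210 and 208 CPM), MGE-like (195 and 216 CPM) and CGE-like nuclei (175 and 228 CPM) lay between these and layer 6-like (131 and 135 CPM), layer 5-like (105 and 119 CPM) and striatal-like neurons (99.2 and 109 CPM). Among the 9 classes compared, the level was thus highest in migrating neuron-like and intermediate progenitor-like nuclei in both libraries and lowest in striatal-like neurons. Endothelial-like nuclei stood above all of these, at 1915 CPM in 3 F/F-labelled and 1860 CPM in 51 NCKO-labelled nuclei, and all 54 had a UMI of at least 1 receptor.

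The antisense genes Lrp8os1 and Lrp8os2 overlap Lrp8, and whether the authors' counting used strand was not stated in any label or header. Lrp8os2 was the gene whose class pattern was most like that of Lrp8 (Pearson r 0.900 over 30 points, 1 for each pair of class and library that reached 30 nuclei). Whether part of the Lrp8 UMIs comes from its antisense genes was not tested.

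Between the libraries Lrp8 over all nuclei was 169 and 174 CPM (ratio 1.03, 0.990 to 1.07). The interval excluded 1 in CGE-like interneurons, where the ratio was 1.30 (1.02 to 1.68), and in radial glia-like nuclei, where it was 0.767 (0.591 to 0.996). In Cajal-Retzius-like nuclei, outside the 9 classes for their number, 26 and 87 UMIs gave 88.5 and 150 CPM (1.70, 1.08 to 2.74). No class compared was past 1.5-fold.

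The balance of the receptor genes differed between classes. As a share of Vldlr plus Lrp8 UMIs, Vldlr made 45.9% (41.6% to 50.3%) in F/F-labelled and 37.8% (34.2% to 41.5%) in NCKO-labelled striatal-like neurons. It made 38.7% and 32.1% in layer 5-like, 28.2% and 24.7% in upper-layer-like and 27.3% and 27.0% in layer 6-like neurons. In migrating neuron-like nuclei it was 5.61% (3.92% to 7.75%) and 4.79% (3.28% to 6.73%), and in intermediate progenitor-like nuclei 4.98% and 4.56%. Endothelial-like nuclei had 2 Vldlr UMIs among 314 in the NCKO-labelled library (0.637%, 0.0772% to 2.28%). The share compares the same pair of genes across classes and is not a ratio of protein or of molecules per cell, since the genes differ in length. Over all nuclei it was 24.4% (23.4% to 25.6%) and 21.0% (20.2% to 21.9%).

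**Figure D3:**
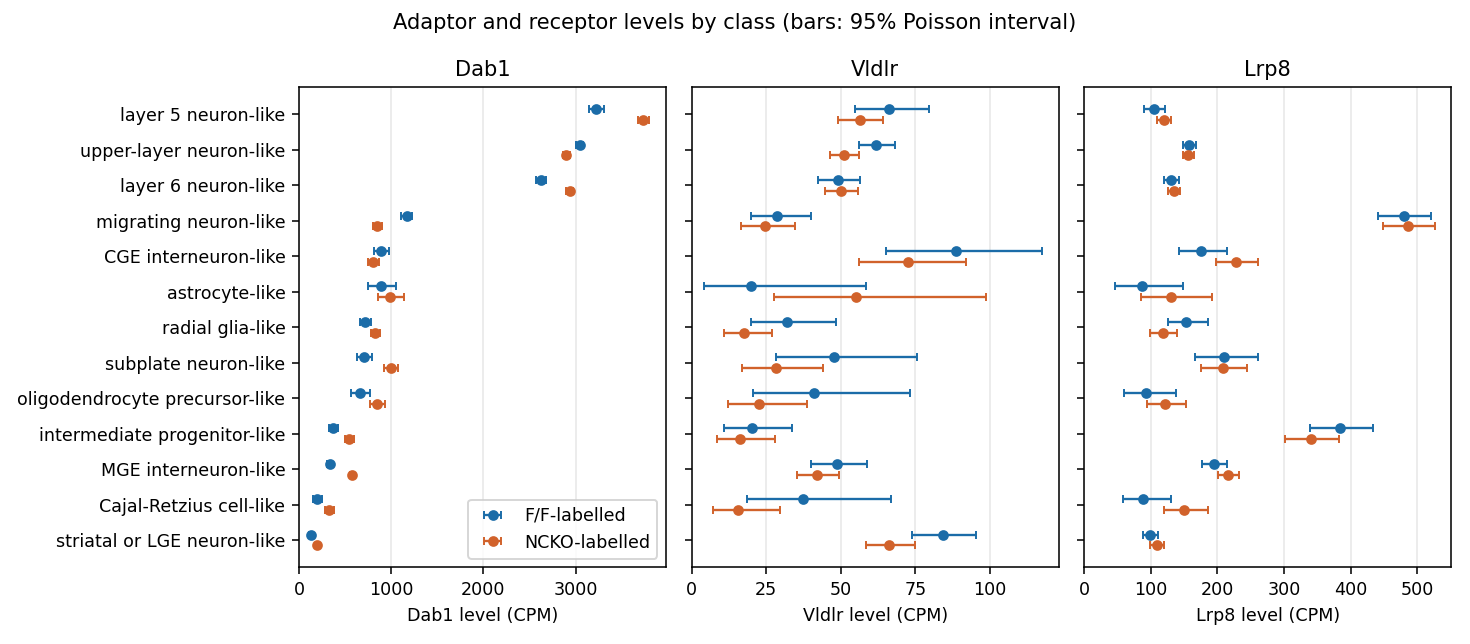
Levels in CPM of Dab1 (left), Vldlr (middle) and Lrp8 (right) in 13 classes, ordered by Dab1 in the F/F-labelled library, with bars for the exact Poisson 95% interval, blue for F/F-labelled and orange for NCKO-labelled. Dab1 is highest in layer 5-like, upper-layer-like and layer 6-like neurons (2625 to 3735 CPM), Lrp8 in migrating neuron-like nuclei (480 and 487 CPM), and the Vldlr intervals overlap between neighbours.

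The adaptor gene Dab1 had its highest levels in excitatory neurons that had reached a layer. Dab1 (ENSMUSG00000028519) spans chr4:103619359-104744844 on the plus strand, over 1125486 bases, and its product is the tyrosine-phosphorylated relay of both receptors. Layer 5-like neurons had 3226 CPM (interval 3143 to 3311) for F/F and 3735 CPM (interval 3674 to 3796) for NCKO. Upper-layer-like neurons had 3043 and 2898 CPM and layer 6-like neurons 2625 and 2934 CPM, and in the NCKO-labelled library the intervals of these 2 classes overlapped. Below them came migrating neuron-like (1166 and 848 CPM), CGE-like (894 and 805 CPM), astrocyte-like (892 and 988 CPM), radial glia-like (718 and 828 CPM) and oligodendrocyte precursor-like nuclei (662 and 849 CPM). Subplate-like neurons, in 50 and 101 nuclei, were also below the 3 layer classes, at 707 and 999 CPM. Intermediate progenitor-like nuclei had 373 and 545 CPM, and MGE-like interneurons 331 and 573 CPM. Cajal-Retzius-like nuclei, with most Reln, had 194 and 328 CPM, and striatal-like neurons 124 and 197 CPM, while CGE-like interneurons, next in Reln, were not low in Dab1.

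Dab1 in layer 5-like neurons was thus 16.6 (12.8 to 22.0) and 11.4 (9.88 to 13.2) times the Cajal-Retzius-like level, and 25.9 (23.3 to 29.0) and 19.0 (17.7 to 20.4) times the striatal-like level. Cajal-Retzius-like nuclei held 0.111% and 0.221% of Dab1 UMIs, against their 57.1% and 55.7% of Reln UMIs. Upper-layer-like neurons held 40.3% of Dab1 UMIs in the F/F-labelled and 27.9% in the NCKO-labelled library, where they were also a smaller share of nuclei. Across 30 points of class and library, log2(CPM + 5) of Reln and of Dab1 had a Pearson r of −0.401. Those points share their libraries and differ in depth, and the value is a description.

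Dab1 also differed between clusters of 1 class. The largest migrating neuron-like cluster, led by Unc5d, Sema3c and Slc17a6, had 544 CPM in the F/F-labelled and 383 CPM in the NCKO-labelled library. The upper-layer-like cluster led by Hs6st2, Frem2 and Cux1 had 4011 and 4092 CPM, 7.37 (6.73 to 8.08) and 10.7 (9.62 to 11.9) times higher. For Lrp8 the same pair ran the other way, with 574 and 572 CPM in the migrating cluster and 209 and 282 CPM in the upper-layer-like one, a ratio of 2.74 (2.42 to 3.11) and 2.03 (1.78 to 2.31). The smaller migrating neuron-like clusters did not share this pattern: the one led by Fam163a and Cck had 3544 and 2689 CPM of Dab1 with 147 and 252 CPM of Lrp8, and the one led by Nr4a3 and Nrp1 had 2267 and 1522 CPM with 211 and 167 CPM. The upper-layer-like cluster led by Itpr1 and Ntf3 had 4432 and 4538 CPM of Dab1, while the one led by Inhba and Rorb had 1762 and 2015 CPM. Among MGE-like interneurons the Tacr1 and Sst cluster had 1080 and 1519 CPM, the Sst and Elfn1 cluster 349 and 625 CPM and the Lhx6 cluster 128 and 158 CPM. In the striatal-like class the Tac1 cluster had 162 and 222 CPM and the Drd2 cluster 66.1 and 139 CPM. That Tac1 cluster was higher in both Reln and Dab1 than the Drd2 cluster, by 2.45 (1.89 to 3.21) and 1.59 (1.34 to 1.90) times in Dab1.

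**Figure D4:**
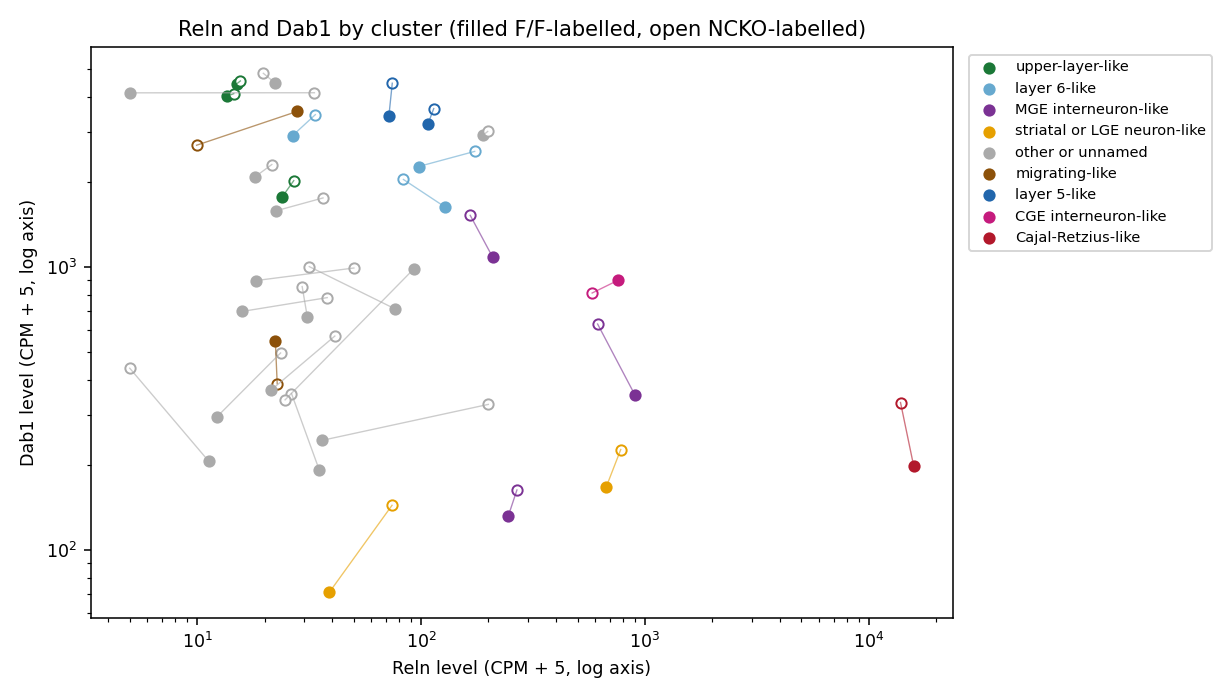
Reln level (x) against Dab1 level (y), both in CPM + 5 on log axes, for the 32 clusters that reached 20 nuclei in both libraries, filled for F/F-labelled and open for NCKO-labelled, with a line joining the libraries. Upper-layer-like clusters lie at low Reln and high Dab1, Cajal-Retzius-like nuclei at high Reln and low Dab1, and CGE-like interneurons at 754 and 576 CPM of Reln with 894 and 805 CPM of Dab1.

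Between the libraries Dab1 over all nuclei was 1912 CPM in the F/F-labelled and 2079 CPM in the NCKO-labelled library, a ratio of 1.09 (1.08 to 1.10). By class it was 1.16 (1.12 to 1.19) in layer 5-like, 1.12 (1.09 to 1.14) in layer 6-like and 0.953 (0.935 to 0.970) in upper-layer-like neurons. In this last class the largest cluster was the Frem2 one in the F/F-labelled library (687 nuclei) and the Inhba one in the NCKO-labelled library (998 nuclei). The Dab1 ratios of its 3 clusters were 1.02, 1.02 and 1.14, each at or above 1, and using the F/F cluster shares as weights turned the log2 ratio from −0.07 to 0.08. So the lower upper-layer-like value was not seen within any cluster.

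Migrating neuron-like nuclei had less Dab1 in the NCKO-labelled library, 1166 against 848 CPM from 1389 and 1074 UMIs (ratio 0.728, 0.671 to 0.789). All 3 clusters of the class were lower there, with ratios of 0.703, 0.759 and 0.671. The value depended on which nuclei were put in the class: its log2 ratio of −0.46 was −0.10 with the 8 genes among the variable genes, and 0.35 with each library clustered alone.

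MGE-like interneurons had more Dab1 in the NCKO-labelled library, 331 against 573 CPM from 733 and 2023 UMIs, a ratio of 1.73 (1.59 to 1.89). Some genes that mark other neurons moved with it, but not all. The 5 excitatory-neuron genes summed to 69.9 and 125 CPM, and the CGE marker Adarb2 was 359 and 778 CPM. Prox1, like Adarb2 a leading gene of the CGE-like cluster, went the other way, with 14.89 and 10.48 CPM from 33 and 37 UMIs. In upper-layer-like neurons those 5 genes summed to 427 and 436 CPM. Over the MGE-like nuclei with no UMI of the 5 genes (82.5% and 76.1%), Dab1 was 197 and 291 CPM, a ratio of 1.48 (1.29 to 1.69). In the Sst and Elfn1 cluster the ratio was 1.79 (1.57 to 2.04) over all nuclei and 1.13 (0.915 to 1.39) over those without the 5 genes, whose sum there was 57.8 and 148 CPM. The smaller Tacr1 and Sst cluster went the other way, from 1.41 (1.23 to 1.61) to 2.52 (1.95 to 3.28). The part of the 5 genes in the Dab1 ratios of these nuclei was not tested. Without doublet removal the class was at 0.43 on the log2 scale of CPM + 5, and with each library clustered alone at 0.40, both short of 1.5-fold.

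Striatal-like neurons had 124 and 197 CPM of Dab1 from 355 and 784 UMIs, a ratio of 1.58 (1.39 to 1.80). The 5 excitatory-neuron genes summed to 61.7 and 53.5 CPM there. Without the nuclei that held them the Dab1 ratio was 1.53 (1.30 to 1.81), and the part of these genes in it was not tested. With each nucleus thinned to 1000 UMIs the log2 ratio of 0.64 became 0.14. Cajal-Retzius-like nuclei had a ratio of 1.69 (1.25 to 2.31) from 57 and 190 UMIs, and intermediate progenitor-like nuclei 1.46 (1.25 to 1.71). An unnamed cluster led by Pbx3, Tshz1 and Dlx6 had 188 and 353 CPM (ratio 1.88, 1.497 to 2.37).

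**Figure D5:**
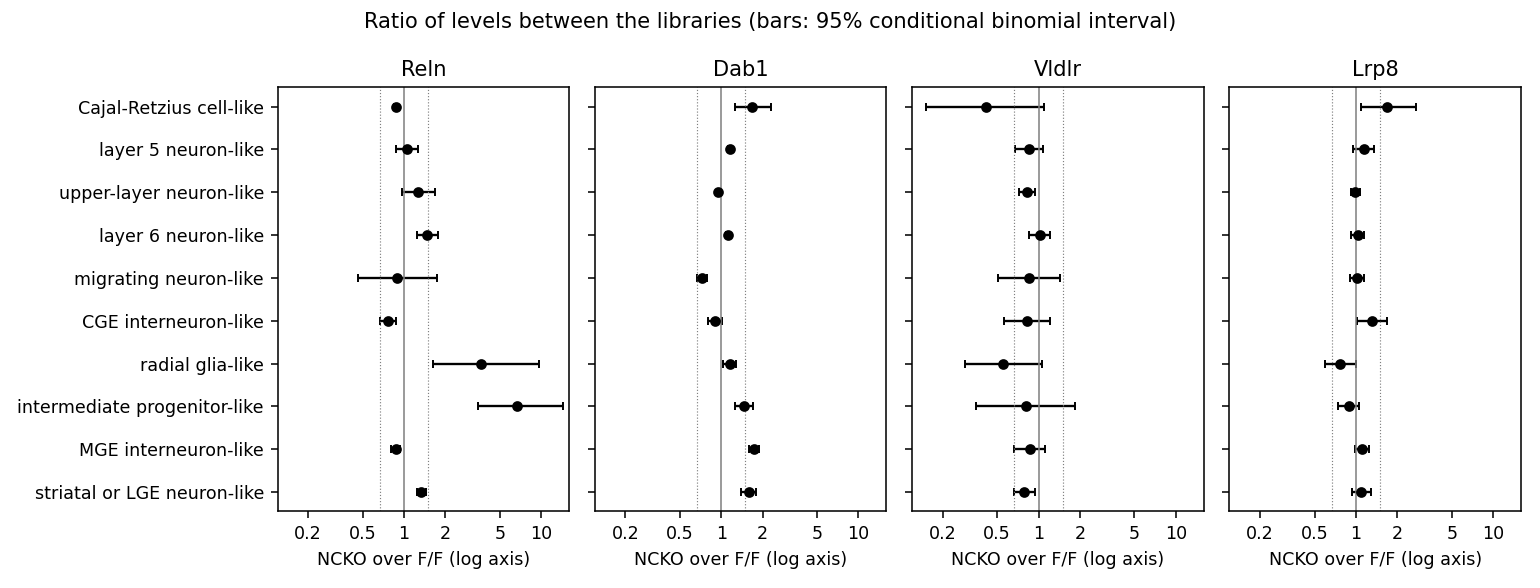
Ratio of the NCKO-labelled over the F/F-labelled level of Reln, Dab1, Vldlr and Lrp8 (log axis) in 10 classes, with bars for the exact conditional binomial 95% interval, a solid line at 1 and dotted lines at 1.5-fold. Reln in intermediate progenitor-like (6.69) and radial glia-like nuclei (3.65) lies farthest from 1 with wide bars, and 8 of the 9 compared classes lie below 1 for Vldlr.

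Of the 13 classes that reached 30 nuclei in both libraries, the kinase gene Fyn was highest in oligodendrocyte precursor-like nuclei and CGE-like interneurons. Fyn (ENSMUSG00000019843) lies at chr10:39368855-39565381 on the plus strand, overlaps the antisense genes Gm16364 and Gm16365, and encodes a Src-family kinase that also acts in myelin-forming cells. Oligodendrocyte precursor-like nuclei had 741 CPM in the F/F-labelled and 582 CPM in the NCKO-labelled library, 2.34 (2.02 to 2.71) and 1.95 (1.73 to 2.19) times the upper-layer-like levels of 316 and 299 CPM. CGE-like interneurons had 522 and 429 CPM against 273 and 272 CPM in MGE-like interneurons, a ratio of 1.91 (1.66 to 2.21) and 1.58 (1.40 to 1.77). Layer 6-like neurons were among the lowest, at 172 and 179 CPM. Fyn was thus present in every class that held receptors. Over all nuclei its levels of 292 and 284 CPM gave a ratio of 0.974 (0.947 to 1.003). Of the 9 classes, the interval excluded 1 only in CGE-like interneurons (0.823, 0.705 to 0.962), and none was past 1.5-fold.

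Crk, Crkl and Rapgef1 differed little between the libraries over all nuclei. Crk (ENSMUSG00000017776, chr11:75679259-75706908, plus strand) and Crkl (ENSMUSG00000006134, chr16:17451987-17487434, plus strand) encode adaptors with SH2 and SH3 domains. Rapgef1 (ENSMUSG00000039844, chr2:29619720-29740978, plus strand) encodes an exchange factor that activates Rap1. Over all nuclei Crk was 62.0 CPM in the F/F-labelled and 62.5 CPM in the NCKO-labelled library (ratio 1.008, 0.948 to 1.07). Crkl was 33.8 and 34.5 CPM (1.02, 0.938 to 1.11), and Rapgef1 132 and 138 CPM (1.05, 1.002 to 1.09). These genes lie at the shared end of the pathway, downstream of many receptors.

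Among the 9 classes compared, Crk ranged from 49.4 CPM in layer 6-like to 83.4 CPM in intermediate progenitor-like nuclei of the F/F-labelled library. In the other library it ranged from 54.8 to 114 CPM. Its interval excluded 1 in layer 6-like neurons alone of the 9 classes, at a ratio of 1.22 (1.02 to 1.46). Over the same 9 classes Crkl ranged from 26.7 to 71.9 CPM and from 30.4 to 53.7 CPM. Rapgef1 ranged there from 112 to 151 CPM and from 116 to 182 CPM. For Crkl and Rapgef1 every interval of the 9 classes held 1. None of the 12 neighbouring pairs in the order of 13 classes had separate intervals for any of these 3 genes, although classes far apart in that order did: Crkl was 71.9 CPM (53.4 to 94.8) in intermediate progenitor-like and 26.7 CPM (21.9 to 32.4) in layer 6-like nuclei of the F/F-labelled library. Over the 13 classes Crk reached 113 CPM in F/F-labelled astrocyte-like nuclei and fell to 45.4 CPM in NCKO-labelled oligodendrocyte precursor-like nuclei. Its highest level there was 2.29 and 2.50 times its lowest, where for Reln it was 1565 and 877 times.

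The other genes of the pathway were read in 6 lists of 41 genes in all. Over all nuclei none of the 41 was past 1.5-fold, and their median log2 ratio was 0.05 beside 0.02 for all genes. In the 9 classes, 14 of 283 tested pairs of gene and class were past it, 9 higher and 5 lower in the NCKO-labelled library, which is 4.95% beside the 7.07% of all genes. The largest medians of the 41 were 0.14 in migrating neuron-like (all genes 0.03) and 0.11 in layer 5-like nuclei (all genes 0.03).

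Among the genes that process reelin or share its receptors (6 genes), Adamts2 and Adamts3 passed the fold. Their products are metalloproteinases that cut reelin. In upper-layer-like neurons Adamts2 was 74.1 CPM from 503 UMIs in the F/F-labelled and 43.4 CPM from 360 UMIs in the NCKO-labelled library (ratio 0.586, 0.510 to 0.672). Most of these UMIs came from the Frem2 cluster, which made up less of the class in the NCKO-labelled library, and there the level was 188 and 200.3 CPM (1.07, 0.917 to 1.24). In the Inhba and Itpr1 clusters the ratios were 0.676 (0.403 to 1.14) and 0.720 (0.434 to 1.19). In radial glia-like nuclei Adamts2 was 37.6 and 21.0 CPM from 26 and 25 UMIs (0.558, 0.309 to 1.006). Adamts3 in migrating neuron-like nuclei was 114 and 190 CPM (1.66, 1.34 to 2.06). None of the 7 genes of receptor turnover and related receptors, such as Mylip and Lrp1, was past the fold in any class.

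In the list of kinases and Dab1 turnover (5 genes), Src, a kinase of the family of Fyn, was 24.0 and 44.7 CPM in CGE-like interneurons (ratio 1.87, 0.983 to 3.79). Socs7, which helps mark Dab1 for degradation, was higher in layer 5-like neurons (26.1 and 45.1 CPM, 1.73, 1.24 to 2.45) and in radial glia-like nuclei (31.8 and 56.3 CPM, 1.77, 1.08 to 3.01). Yes1, a further kinase of that family, was lower in radial glia-like nuclei (99.9 and 58.8 CPM, 0.589, 0.416 to 0.833). Of the 7 genes from phosphoinositide 3-kinase to tau, Akt1 alone passed, in migrating neuron-like nuclei (21.8 and 41.1 CPM, 1.88, 1.15 to 3.14).

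Nectin3 was the gene of the Rap1 and adhesion list (7 genes) that passed. It encodes a cell adhesion molecule of migrating cortical neurons that binds Nectin1 on Cajal-Retzius cells. In upper-layer-like neurons it was 247 CPM from 1680 UMIs in the F/F-labelled and 152 CPM from 1259 UMIs in the NCKO-labelled library (ratio 0.614, 0.570 to 0.660). It was lower in all 3 clusters of that class, with ratios of 0.529 (0.474 to 0.590) in the Inhba, 0.818 (0.708 to 0.943) in the Frem2 and 0.681 (0.589 to 0.786) in the Itpr1 cluster. The summed markers of the class were 6758 and 4902 CPM, and their part in these differences was not tested. It was also lower in migrating neuron-like nuclei (131 and 82.9 CPM, 0.633, 0.490 to 0.816) and higher in CGE-like interneurons (38.7 and 64.98 CPM, 1.68, 1.008 to 2.90). In the list of cytoskeleton and Cdk5 (9 genes), Cdk5r1, the p35 activator of Cdk5, was 52.0 and 95.6 CPM in migrating neuron-like nuclei (1.84, 1.34 to 2.54). Dock1, an exchange factor for Rac, was 8.57 and 17.0 CPM in MGE-like interneurons (1.98, 1.17 to 3.52). Beyond the 4 genes named for that class, 1 more gene of this list was past the fold in migrating neuron-like nuclei, higher in the NCKO-labelled library.

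The genes whose class pattern was most like that of each leading member were found by Pearson correlation of log2(CPM + 5) over 30 points among 13471 genes. For Reln they were Gm10475 (r 0.950), an antisense gene inside Reln whose UMIs may not be separable, then Cpne7 (0.862), Snhg11 (0.842), A530046M15Rik (0.829) and Ndst4 (0.816). For Dab1 they were Gm49678 (0.824), Acp1 (0.813), Tiam2 (0.792), Nlgn1 (0.784) and Sox5 (0.771). Those of Vldlr were Egfem1 (0.833), Tro, Rnf24, Jakmip2 and Gm11437 (0.815), and those of Lrp8, after Lrp8os2, included Cerkl (0.773), Tbc1d17 and Smg6 (0.722). Tiam2 is also a marker used to name migrating neurons. The receptor genes did not follow each other (Vldlr with Lrp8, r −0.03), and Dab1 had r 0.398 with Vldlr and 0.08 with Lrp8.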

How the data were processed

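Each deposited matrix gives UMI counts as whole numbers, gene by barcode. The authors made it using Cell Ranger, version 6.1.0 per the file headers. Build mm10 and Seurat, with no role, are named in the submitters' processing notes. Whether strand and intronic reads were used was not stated in any label or header. The members and gene lists were chosen with earlier results of these data known.

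The libraries held 6477 barcodes with 30116311 UMIs (F/F) and 10750 with 50115162 UMIs (NCKO). The filter dropped 10 and 19 barcodes for having under 500 genes, and 1 and 0 for mitochondrial UMIs above 5%. Doublet scores followed Scrublet, with 2 simulated doublets per nucleus, and the highest scores were removed, 0.8% per 1000 barcodes (336 and 924). Both libraries were clustered jointly: 2000 variable genes without the 8 members, 30 principal components, 20 neighbours, Leiden resolution 1 (leidenalg 0.10.2, scikit-learn 1.9.0, numpy 2.4.6, scipy 1.17.1, Python 3.11.15). A cluster was named where the mean log2 fold of a class's markers was highest, at least 0.5 and 0.1 above the next, with 3 markers raised 1.5-fold. Mixed clusters of at least 100 nuclei were first split at resolution 0.5. The steps were checked on simulated data.

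Each class level is the sum of a gene's UMIs over its nuclei in 1 library, scaled to CPM by the sum of all genes. Intervals are exact Poisson (levels), conditional binomial (ratios) and Clopper-Pearson (shares), and cover counting error only. Ratios were called past 1.5-fold on CPM + 5, with at least 50 UMIs, where the pseudocount draws low genes toward 1. The text names the 8 members, list genes past the fold (up to 4 per class), markers used in checks and the 5 genes most like each leading member, except items that are not reported here. Other genes that name a cluster are among its 10 leading genes. Alternatives covered doublet removal, the gene minimum, resolution, variable genes, clustering alone, thinning, pseudocount, UMI minimum and class weights. Those without the nucleus with most Reln, over nuclei without excitatory-neuron genes and per cluster (members, Nectin3 and Adamts2) were added after seeing the data. Positions are from GENCODE vM21 (GRCm38).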

Additional observations from a re-analysis of the deposited data

Results flagged for a closer look

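3 members had intervals above 1 in some classes and below 1 in others, and the differences between classes were not tested. These intervals cover counting error only. No such share over all genes stands beside these counts, so they are not a result particular to the members. Reln had a ratio of NCKO-labelled over F/F-labelled of 6.69 in intermediate progenitor-like nuclei, the highest of 4 classes above 1, and of 0.765 in CGE-like interneurons, the lowest of 2 below 1. Dab1 had 1.73 in MGE-like interneurons, the highest of 6, and 0.728 in migrating neuron-like nuclei, the lowest of 2. Lrp8 had 1.30 in CGE-like interneurons and 0.767 in radial glia-like nuclei.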

How the results depend on the processing

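Of 1000 values recomputed under alternatives, 889 were counted as moving by less than their counting interval, 105 as moving by more and 6 as reversed. Those 6 are not all the changes of sign. Ratios near 1 crossed it for more pairs of gene and class, such as Crk in upper-layer-like neurons (log2 ratio −0.14 to 0.040). The pseudocounts CPM + 1 and CPM + 20 gave 88 values each, and none of these moved by more. Apart from shares in percent, the values below are log2 ratios of CPM + 5 (NCKO-labelled over F/F-labelled), and the cause of each shift was not tested. With nuclei thinned to 1000 UMIs, Reln over all nuclei went from 0.19 to 0.41, Reln in MGE-like interneurons from −0.19 to 0.14, Dab1 over all nuclei from 0.12 to 0.058, Dab1 in radial glia-like nuclei to −0.0027, Dab1 in migrating neuron-like nuclei from −0.46 to −0.28, Vldlr over all nuclei from −0.22 to −0.088, and the Cajal-Retzius-like share of Reln UMIs from 57.1% and 55.7% to 50.8% and 53.3%. Without doublet removal that share was 54.4% in both libraries, Reln in Cajal-Retzius-like nuclei went from −0.19 to −0.33, and Dab1 was 0.43 in MGE-like (0.78 before) and −1.46 in migrating neuron-like nuclei. With F/F class shares used as weights in both libraries, Reln over all nuclei was −0.00060 and Dab1 0.10. With clusters so weighted, Reln was −0.34 in MGE-like and 0.25 in striatal-like (0.42 before), and Dab1 0.60 in MGE-like and 0.077 in upper-layer-like neurons. With each library clustered alone, Reln in MGE-like was −0.027, and Dab1 was 0.40 in MGE-like, 0.35 in migrating neuron-like and 0.13 in upper-layer-like neurons. With at least 1000 genes per nucleus, Dab1 was 1.03 in MGE-like and −0.29 in migrating neuron-like nuclei. At resolution 0.5 these were 0.94 and −0.30, and at resolution 2 the second was −0.21, as −0.10 with members among the variable genes. Chosen after seeing the data, the nuclei without excitatory-neuron genes gave Dab1 0.55 in MGE-like and Reln −0.047 in Cajal-Retzius-like nuclei. The Reln ratio in intermediate progenitor-like nuclei, 2.38, was 0.22 at resolution 2 and 2.03 without the nucleus with most Reln UMIs, also chosen after seeing the data. No paired analysis was possible because each label has 1 library. The depth limits Reln outside its sources: 10 UMIs in intermediate progenitor-like and 7 in radial glia-like nuclei of the F/F-labelled library.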
